A study of Rattus norvegicus with 30 samples.

Results

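Nrf2, the protein of *Nfe2l2*, is a transcription factor that switches on genes of antioxidant defence and detoxification. It binds DNA at the antioxidant response element (ARE) as a pair with a small Maf protein, MafG, MafK or MafF. In unstressed cells the sensor Keap1 holds Nrf2 and presents it to an E3 ligase built on cullin 3 (Cul3), so that it is degraded, and electrophiles such as fumarates modify Keap1 and let Nrf2 accumulate. The repressors Bach1 and Bach2 compete for the same elements, also with small Maf partners. Nrf1, the protein of *Nfe2l1*, is a related activator that is held in the endoplasmic reticulum and is best known for proteasome genes. *Osgin1* (oxidative stress induced growth inhibitor 1) is a target of Nrf2. Most control of Nrf2 acts on its protein, which was not measured here, and the values below are of messenger RNA.

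The 10 genes *Nfe2l2*, *Nfe2l1*, *Mafg*, *Mafk*, *Maff*, *Keap1*, *Cul3*, *Bach1*, *Bach2* and *Osgin1* were taken by their symbols. Of these, 9 had a row among the 21993 genes of the tables used, and *Mafk* was not analysed here. RNA was sequenced from primary hippocampal neurons of wild-type Wistar rats, taken from embryos at embryonic day 18 and kept in culture for 7 days. They received dimethyl fumarate (DMF, 30 µM), its hydrolysis product monomethyl fumarate (MMF, 30 µM), or cannabidiol (CBD, 6 µM) for 4 or 24 h. Both fumarates were given in dimethyl sulfoxide (DMSO), so DMF and MMF are set against the same DMSO libraries. Ethanol (EtOH) was the vehicle of CBD. Vehicles were used at 0.2%, and no group went without one. Each drug and each vehicle had 3 libraries per time, numbered 1 to 3, which makes 30 libraries in 10 groups.

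The authors divided the read counts of each gene by a size factor per library, and these normalized counts are the values given for single libraries. Size factors were set within the 6 libraries of each table, so a DMSO library has slightly different values beside DMF and beside MMF. Between 15108132 and 25367834 reads per library lay on genes (median 20088658). Each drug was compared with its vehicle by limma on the log2 of the normalized count with a pseudocount of 1, which understates the change of genes with few reads. A log2 fold change (log2FC) is drug minus vehicle, and a gene was called a DEG where the p adjusted over all genes tested was under 0.05. Libraries of the same number deviated together, so the test was also run with the replicate number as a block, and that p is given where it changes a call. A named gene said to pass with the block did not pass without it. Counts of genes with the block also include those called without it.

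The cultures were not neurons alone. The summed normalized counts of 10 neuron markers lay between 92011 and 126552 in the 30 libraries. Those of 9 astrocyte markers lay between 43253 and 111276. Markers of microglia were near 0, with a summed level of at most 142. Libraries numbered 3 stood apart, with astrocyte sums between 43253 and 61435 against 72851 to 111276 in libraries 1 and 2. In bulk RNA, fewer cells of a type and less RNA per cell cannot be told apart. The CBD libraries at 24 h also differed widely from each other in the genes below.

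*Nfe2l2* (ENSRNOG00000001548, chromosome 3, 60594242 to 60621737 in mRatBN7.2) encodes Nrf2 itself, and its messenger rose with DMF at 24 h. The 3 libraries with DMF had 438, 452 and 439 normalized counts, against 246, 270 and 173 with DMSO. All 3 libraries with DMF lay above the highest DMSO library, and they differed little from each other. The log2FC was 0.97 ± 0.16 (SE, n = 3 against 3, adjusted p = 0.0117). The adjusted p was 0.0504 without DMSO replicate 1, and 0.00676 without the libraries numbered 3, with a log2FC of 0.78. With the spread taken from all 30 libraries the call was lost (log2FC 0.97, adjusted p = 0.119). At 4 h, the libraries with DMF had 423, 357 and 226 normalized counts, and those with DMSO had 373, 296 and 193. Each library with DMF was above the DMSO library of its number, but the groups overlapped (log2FC 0.23, adjusted p = 0.735).

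MMF at 24 h left *Nfe2l2* at 317, 340 and 202 normalized counts, against 259, 283 and 181 with DMSO. Every number was higher with MMF, the groups overlapped, and the log2FC of 0.23 did not pass the test (adjusted p = 0.957, 95% interval -0.27 to 0.74). The replicate block gave a narrower interval of 0.05 to 0.42, and the test was not passed there either (adjusted p = 0.236). With MMF at 4 h the log2FC was 0.06 (adjusted p = 1). CBD at 24 h gave 319, 523 and 803 normalized counts in libraries 1, 2 and 3, against 357, 311 and 196 with EtOH. Library 1 lay below its EtOH library, while library 3 held the highest *Nfe2l2* value of all 30 libraries. The log2FC was 0.87 ± 0.34 (SE), and the test was not passed (adjusted p = 0.473). Leaving out single libraries moved it between 0.55 and 1.21, and without the libraries numbered 3 it was 0.29. With CBD at 4 h it was 0.16 (adjusted p = 1).

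**Figure D1:**
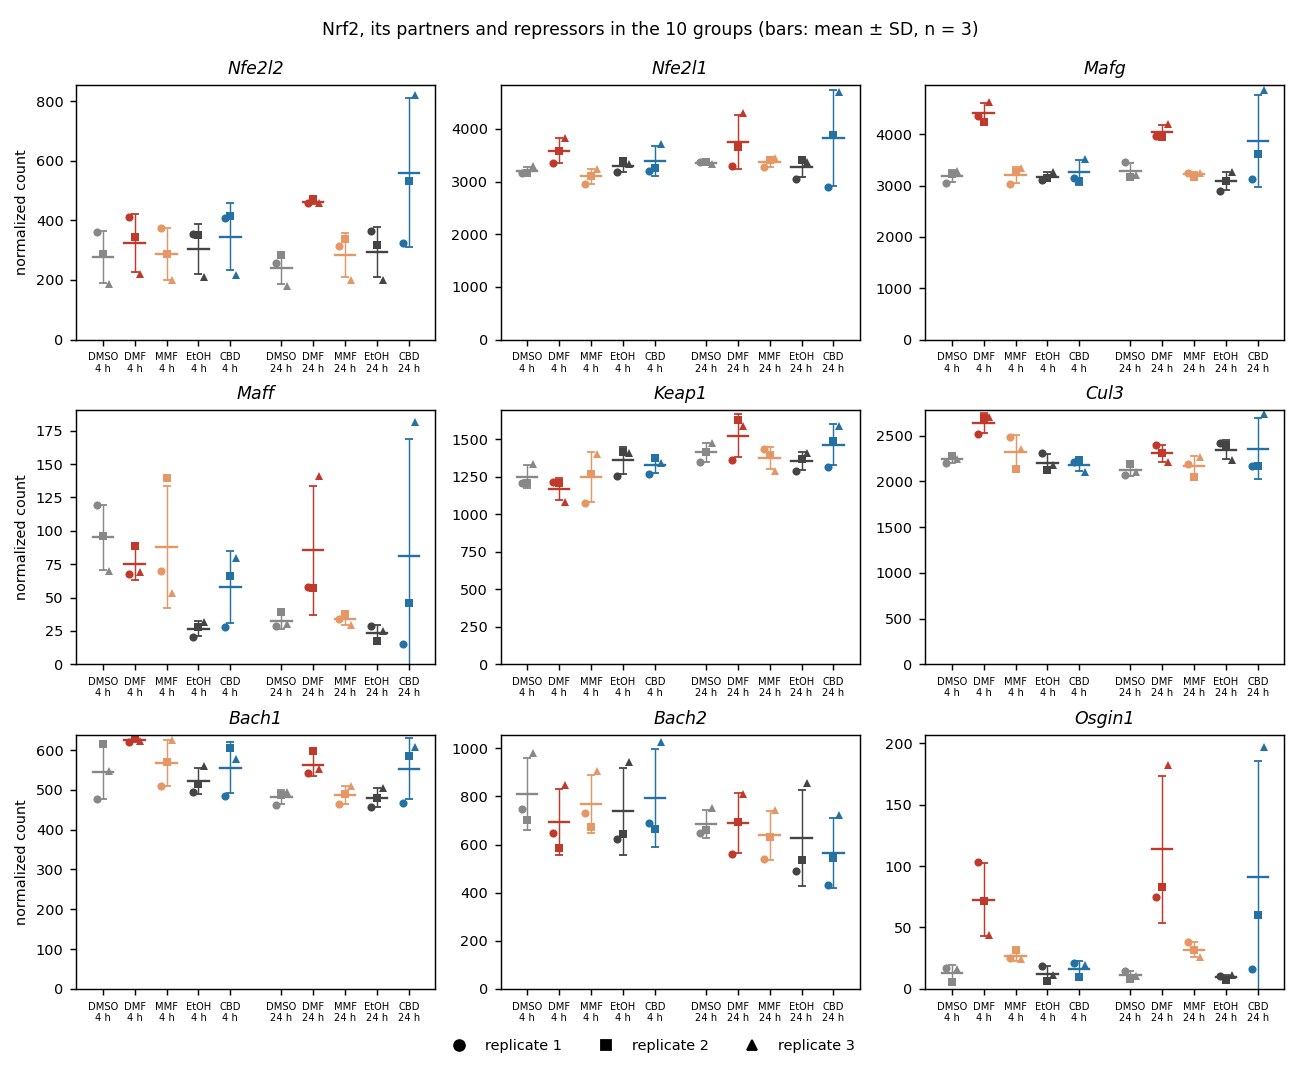
Normalized counts of the 9 genes on 1 scale for all 30 libraries (reads divided by median-ratio size factors), by drug or vehicle and time, with a marker shape for each replicate number and bars for the mean ± SD (n = 3, cut off at 0 where the SD exceeds the mean). *Nfe2l2* with DMF at 24 h lay between 458 and 473, and with CBD at 24 h between 325 and 821, while the 12 vehicle libraries lay between 181 and 363.

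Scaled over all 30 libraries, the group means of *Nfe2l2* ran from 240 with DMSO at 24 h to 560 with CBD at 24 h, a ratio of 2.33. The second highest mean was that with DMF at 24 h (463 ± 8.49, SD), which differed from the next, CBD at 4 h (345 ± 112), by more than the larger SD. No other pair of neighbours in this order did. In the vehicles, *Nfe2l2* was lower in the libraries numbered 3 (181 to 209) than in those numbered 1 (257 to 363) and 2 (282 to 350), as the astrocyte markers were. The same number with DMF at 24 h reached 459 while its astrocyte sum was 61435, and with CBD at 24 h it reached 821 with an astrocyte sum of 43253. The part of astrocytes in the *Nfe2l2* values was not tested.

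**Figure D2:**
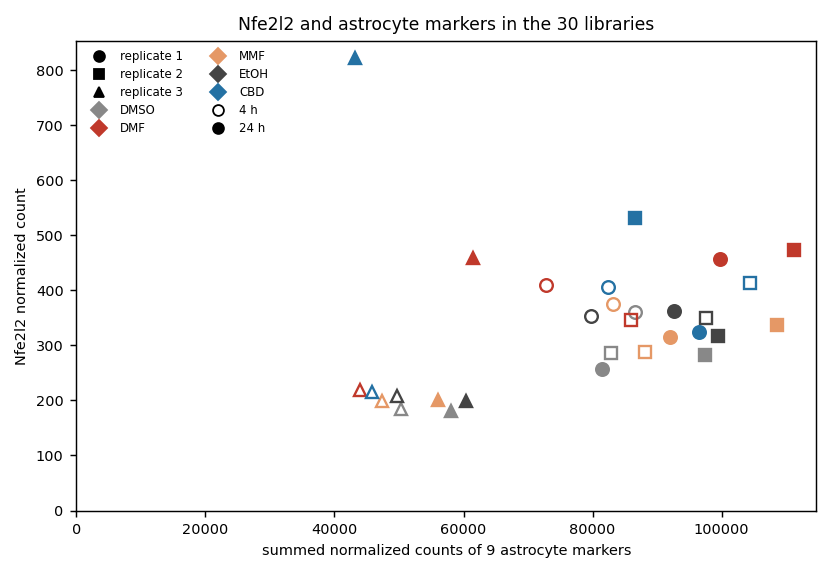
*Nfe2l2* normalized counts (vertical) against the summed normalized counts of 9 astrocyte markers (horizontal) in the 30 libraries, with colour for the drug or vehicle, shape for the replicate number and open or filled markers for 4 or 24 h. The libraries numbered 3 stand to the left, at or under 61435, and among them those with DMF and CBD at 24 h lie at 459 and 821.

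The promoter table of RefSeq (build GRCr8) held a sequence for 9 of the 10 genes, from 250 bases before the start to 50 after it, and none for *Cul3*. A pair of short motifs was looked for on both strands, the ARE core TGACNNNGC, which Nrf2, Bach1 and their Maf partners recognise, and the AP-1 site TGACTCA. The ARE core was in 12.1% of all 33469 windows and the AP-1 site in 4.63%. Matches to the ARE core lay in the windows of *Nfe2l2* and *Mafk*, and a match to the AP-1 site in that of *Bach1*. The matching stretches are shown with the motif in capitals, read 5′ to 3′ on the strand of the gene.
Nfe2l2, ARE core on the gene's strand, 39 bases after the start (chr3:81028950-81028979, minus strand): actgctccgactagccatTGACGCCGCctc
Mafk, ARE core on the opposite strand, 41 bases before the start (chr12:19959214-19959243, minus strand): gatcccggaaGCGGTGTCAgtactggggag
Bach1, AP-1 site on the opposite strand, 30 bases after the start (chr11:40425739-40425768, plus strand): cgcggagggagTGAGTCAcctgaccgccgc

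The 250 bases before the start follow for the genes that rose with DMF and for the small Maf genes, so that they can be set side by side. Capitals mark the ARE core, which only the window of *Mafk* holds.
Nfe2l2 (chr3:81029000-81029249, minus strand): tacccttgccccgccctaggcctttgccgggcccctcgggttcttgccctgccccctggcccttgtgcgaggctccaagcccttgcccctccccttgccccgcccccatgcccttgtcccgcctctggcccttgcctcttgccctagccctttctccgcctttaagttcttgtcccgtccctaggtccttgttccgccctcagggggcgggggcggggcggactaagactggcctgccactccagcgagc
Mafg (chr10:106410133-106410382, minus strand): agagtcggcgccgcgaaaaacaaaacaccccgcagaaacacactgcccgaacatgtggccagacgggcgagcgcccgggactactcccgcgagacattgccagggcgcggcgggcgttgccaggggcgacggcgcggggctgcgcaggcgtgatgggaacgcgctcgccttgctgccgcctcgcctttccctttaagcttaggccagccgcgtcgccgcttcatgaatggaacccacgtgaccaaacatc
Maff (chr7:112792537-112792786, plus strand): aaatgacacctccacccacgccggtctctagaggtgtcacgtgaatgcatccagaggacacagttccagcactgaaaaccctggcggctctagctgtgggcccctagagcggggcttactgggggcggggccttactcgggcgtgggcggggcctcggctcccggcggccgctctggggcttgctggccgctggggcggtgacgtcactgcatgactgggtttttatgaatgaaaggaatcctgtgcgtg
Mafk (chr12:19959193-19959442, minus strand): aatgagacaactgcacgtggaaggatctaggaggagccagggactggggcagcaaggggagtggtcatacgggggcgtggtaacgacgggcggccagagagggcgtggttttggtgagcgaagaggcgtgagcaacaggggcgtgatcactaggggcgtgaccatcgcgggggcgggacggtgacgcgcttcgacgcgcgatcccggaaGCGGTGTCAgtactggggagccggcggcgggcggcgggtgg
Osgin1 (chr19:64393651-64393900, plus strand): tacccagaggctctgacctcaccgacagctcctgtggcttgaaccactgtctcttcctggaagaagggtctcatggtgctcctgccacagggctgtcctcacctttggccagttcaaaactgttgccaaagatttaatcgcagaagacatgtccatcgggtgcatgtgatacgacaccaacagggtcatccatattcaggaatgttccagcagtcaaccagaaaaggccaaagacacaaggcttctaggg
The full windows of *Nfe2l2*, *Mafg*, *Mafk* and *Maff* held between 63.3% and 68.0% G and C, and that of *Osgin1* 52.7%, beside a median of 51.7% over all windows. A match describes the letters and is no measured site.

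*Nfe2l1* (ENSRNOG00000008830, chromosome 10, 81800366 to 81832318) encodes Nrf1. With DMF at 4 h it had 3457, 3697 and 3962 normalized counts, against 3261, 3284 and 3430 with DMSO. The groups did not overlap, but the log2FC of 0.15 passed the test with the replicate block (adjusted p = 0.284 without the block and 0.0352 with it). Its log2FC with DMF at 24 h was again 0.15 (adjusted p = 0.456), and with MMF it was -0.05 at 4 h and below 0.01 at 24 h. With CBD at 24 h the libraries had 2839, 3820 and 4605 normalized counts, against 2998, 3346 and 3308 with EtOH. They rank in the same order as for *Nfe2l2*, with library 1 below its vehicle, and the log2FC of 0.20 did not pass (adjusted p = 0.71).

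*Mafg* (ENSRNOG00000036697, chromosome 10, 105903237 to 105912026) encodes the small Maf partner MafG, and it rose with DMF at both times. At 4 h the libraries with DMF had 4486, 4378 and 4782 normalized counts, against 3162, 3352 and 3421 with DMSO. The groups were clearly separate, with the lowest DMF library well above the highest DMSO library. The log2FC was 0.46 ± 0.07 (SE, adjusted p = 0.0196), a 1.37-fold level. At 24 h there were 3792, 3768 and 4016 normalized counts with DMF and 3315, 3034 and 3063 with DMSO, which again did not overlap. The log2FC was then 0.30 ± 0.06 (SE, adjusted p = 0.0344), or 1.23-fold. With 1 library fewer, the direction stayed in all 6 fits at each time, but the adjusted p lay between 0.0553 and 0.0723 at 4 h and between 0.0398 and 0.136 at 24 h. The call at 24 h was also lost with the spread of all 30 libraries (adjusted p = 0.077).

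MMF did not move *Mafg* in this way. Its log2FC was below 0.01 at 4 h (95% interval -0.17 to 0.18) and -0.03 at 24 h (-0.15 to 0.09). With CBD at 24 h, *Mafg* had 3060, 3558 and 4753 normalized counts in libraries 1, 2 and 3, each above its EtOH library (2851, 3026 and 3205). The log2FC of 0.30 was as large as that with DMF, but its SE of 0.15 was more than that of DMF and the test was not passed (adjusted p = 0.556). With CBD at 4 h the log2FC was 0.03 (adjusted p = 1).

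*Maff* (ENSRNOG00000012886, chromosome 7, 110912499 to 110923851), the gene of MafF, had few reads, between 13 and 205 per library. With DMF at 24 h it had 55.3, 54.3 and 135 normalized counts, against 27.2, 37.6 and 28.6 with DMSO. All libraries with DMF were above all with DMSO, with library 3 the highest by far. The log2FC of 1.24 ± 0.35 (SE) missed the threshold (adjusted p = 0.0951) and passed with the replicate block (0.0198) and by DESeq2 (0.0121). It was 0.76 without the libraries numbered 3 (adjusted p = 0.166). At 4 h, *Maff* was lower with DMF than with DMSO in each number, with 69.7, 91.5 and 71.5 against 123.1, 99.4 and 72.9 normalized counts, and this did not pass (log2FC -0.32, adjusted p = 0.498).

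With CBD at 4 h, *Maff* had 28.5, 67.5 and 81.0 normalized counts, against 20.7, 28.1 and 32.3 with EtOH. Each library with CBD was above its EtOH library, but library 1 lay within the EtOH range. The log2FC was 0.99 ± 0.40 (SE), and it passed with the replicate block (adjusted p = 1 without it and 0.0263 with it). The libraries with CBD at 24 h ran from 14.9 over 45.2 to 177 normalized counts, which is below, above and far above the EtOH libraries (16.8 to 28.5), and the log2FC of 1.10 had an SE of 0.75 (adjusted p = 0.655). MMF gave a log2FC of -0.20 at 4 h and 0.06 at 24 h (adjusted p = 1 and 0.989).

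The vehicles themselves differed in *Maff*. At 4 h the DMSO libraries had 117, 94.4 and 68.9 normalized counts beside 20.0, 27.2 and 31.3 in the EtOH libraries. Every DMSO library was at more than 2 times the level of the highest EtOH library. The log2FC of DMSO against EtOH was 1.79 ± 0.27 (SE), with an unadjusted p of 0.000116, and it was called with the replicate block (adjusted p = 0.00402) and by DESeq2 (0.000243) but not by limma without the block (0.816). It was the member with the largest difference between vehicles at 4 h. At 24 h the difference was 0.46 (adjusted p = 0.973). Within DMSO, *Maff* went from 110.9, 89.2 and 65.3 normalized counts at 4 h to 26.5, 36.6 and 28.0 at 24 h, a log2FC of -1.49 that was called with the block (adjusted p = 0.0144) and by DESeq2 (0.00304) but not by limma without the block (0.357). The *Maff* log2FC of DMF at 24 h is thus taken against a lower DMSO level than that at 4 h.

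*Keap1* (ENSRNOG00000020878, chromosome 8, 19768375 to 19777862) was not a DEG with any drug. With DMF it had 1253, 1248 and 1117 normalized counts at 4 h, against 1253, 1250 and 1391 with DMSO, and 1304, 1554 and 1517 at 24 h, against 1288, 1356 and 1407. The groups overlapped at both times. Its log2FC lay between -0.11 (DMF, 4 h) and 0.11 (DMF, 24 h) in the 6 comparisons of a drug with its vehicle. Between the times, *Keap1* was higher at 24 than at 4 h within DMF (log2FC 0.39 ± 0.09, SE, adjusted p = 0.0251), beside 15.5% of all genes. Without the libraries numbered 3 this was 0.30 (adjusted p = 0.0791). Within DMSO the same difference was 0.18 (adjusted p = 0.488). The change in the DMF effect from 4 to 24 h was not called.

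*Cul3* (ENSRNOG00000015633, chromosome 9, 81592641 to 81670462), the scaffold of the Keap1 ligase, had 2593, 2784 and 2802 normalized counts with DMF at 4 h and 2272, 2366 and 2336 with DMSO. The groups did not overlap, and the log2FC of 0.23 ± 0.06 (SE) passed with the replicate block (adjusted p = 0.0929 without it and 0.00413 with it) and with the spread of all 30 libraries (0.0366). At 24 h the log2FC was 0.12 (adjusted p = 0.365). In the comparisons of MMF and CBD, *Cul3* lay between -0.02 and 0.05.

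The repressors moved little. *Bach1* (ENSRNOG00000001582, chromosome 11, 26939480 to 26972447), which represses *Hmox1* and other ARE genes until heme binds it, had 639, 651 and 644 normalized counts with DMF at 4 h, against 492, 636 and 570 with DMSO. At 24 h it had 518, 570 and 527 against 441, 465 and 472. Both times every library with DMF was above every DMSO library, but the log2FC of 0.20 and 0.23 did not pass (adjusted p = 0.355 and 0.183), nor with the block (0.0979 and 0.079). With MMF the log2FC was 0.06 and 0.02, and with CBD 0.08 and 0.20, at 4 and 24 h (adjusted p at least 0.636).

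*Bach2* (ENSRNOG00000006170, chromosome 5, 46638317 to 46977877), best known as a repressor in lymphocytes, varied with the replicate number. Scaled over all 30 libraries, the vehicles numbered 3 held 750 to 980 normalized counts of it and those numbered 1 and 2 held 489 to 750. With DMF at 4 h it had 668, 606 and 877 normalized counts, each below the DMSO library of its number (775, 727 and 1020). The groups overlapped, and the log2FC of -0.23 passed with the replicate block (adjusted p = 0.501 without it and 0.022 with it). No other member was called lower with a drug than with its vehicle, with or without the block. At 24 h the log2FC with DMF was -0.01, with MMF -0.11 and with CBD -0.14 (adjusted p between 0.877 and 0.987).

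*Osgin1* (ENSRNOG00000014948, chromosome 19, 47492171 to 47500516) made the largest change of the 9 genes. In the vehicles it had few reads, and each drug was above its vehicle in each replicate number at both times. With DMF at 4 h it had 106, 73.5 and 45.5 normalized counts, against 17.2, 5.85 and 17.1 with DMSO. The lowest DMF library was at more than 2 times the level of the highest DMSO library. The log2FC was 2.46 ± 0.46 (SE, adjusted p = 0.0329), a 5.48-fold level. At 24 h there were 71.7, 79.3 and 174 normalized counts against 14.2, 7.68 and 9.94, and the log2FC was 3.16 ± 0.37 (SE, adjusted p = 0.00275), or 8.93-fold. Called in all 6 fits with 1 library fewer at 24 h, *Osgin1* was called in 1 of 6 at 4 h, where the log2FC stayed between 1.99 and 2.77.

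MMF at 24 h gave 38.0, 32.1 and 26.0 normalized counts of *Osgin1*, against 14.9, 8.07 and 10.4 with DMSO, and the groups did not overlap. The log2FC was 1.47 ± 0.30 (SE), and it was called with the replicate block (adjusted p = 0.952 without it and 0.0206 with it). Values with MMF at 4 h were 23.9, 29.8 and 22.8, also all above those with DMSO (15.7, 5.33 and 15.6), and the log2FC of 1.12 was not called with or without the block (adjusted p = 1). With CBD at 24 h they were 16.0, 59.1 and 193, against 10.1, 6.70 and 10.9 with EtOH. All 3 lay above the EtOH libraries, and they were spread over more than 10 times from library 1 to library 3. The log2FC was 2.54 ± 0.76 (SE, adjusted p = 0.389). *Osgin1* was called there by DESeq2 (adjusted p = 0.00047), with the spread taken from all 30 libraries (0.0195), and without CBD replicate 1 (log2FC 3.43, adjusted p = 0.0309), and it was 1.79 without the libraries numbered 3 (adjusted p = 0.795). At 4 h with CBD the log2FC was 0.46 (adjusted p = 1).

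**Figure D3:**
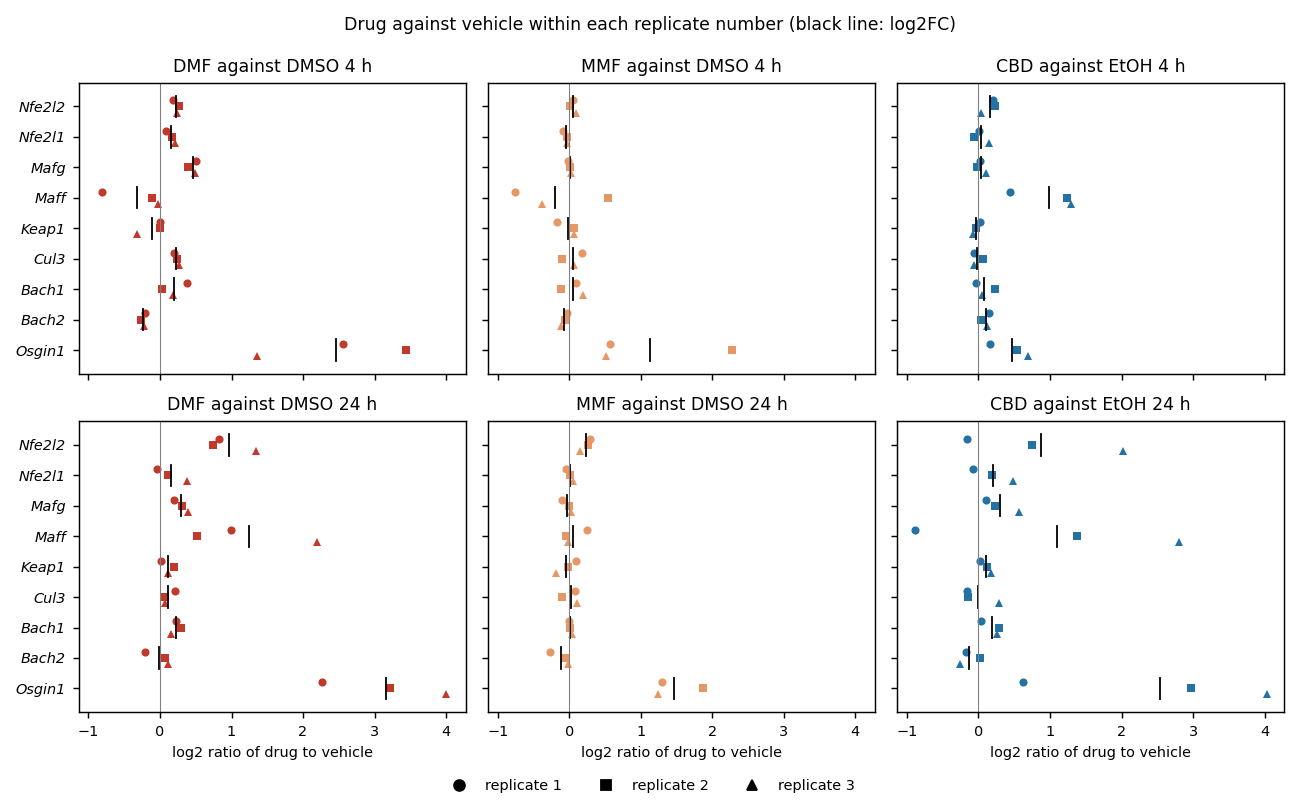
Log2 ratio of drug to vehicle within each replicate number (horizontal, marker shapes) for the 9 genes (vertical) in the 6 comparisons, with a black line at the log2FC. *Osgin1* lay to the right of 0 in all 18 ratios. With CBD at 24 h all genes but *Bach1* and *Bach2* were lowest in replicate 1 and highest in replicate 3.

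In counts, DMF called 2 of the 9 genes at 4 h (*Mafg* and *Osgin1*) and 3 at 24 h (*Nfe2l2*, *Mafg* and *Osgin1*), all of them higher. The members were chosen with earlier results of these data known, so counts of them are a description and no independent test. Over all genes tested, 3.41% were DEGs at 4 h, made up of 1.87% higher and 1.55% lower with DMF. The share was 3.97% at 24 h, made up of 1.88% higher and 2.09% lower. With the replicate block, 5 and 4 of the 9 were called, beside 23% and 12.9% of all genes, and the latter divides into 5.81% higher and 7.1% lower. An unadjusted p under 0.05 was reached by 3 and 5 of the 9, beside 20.1% and 17.4% of all genes. Groups did not overlap for 5 and 6 of the 9, beside 26.3% and 22.8% of all genes. The median log2FC of the 9 was 0.20 at 4 h and 0.23 at 24 h, while that of all genes was below 0.01 and -0.01. Without the libraries numbered 3, 0 and 2 of the 9 were called, in fits of 2 libraries per group. At 4 h the log2FC in these fits was 0.44 for *Mafg* and 3.00 for *Osgin1* (limma, adjusted p = 0.0765 for both). Fewer libraries also lower the power of the test, and the share of all genes called in these fits is not given here.

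MMF called 0 of the 9 by limma at 4 h and 0 at 24 h, where 0% and 0.00707% of all genes were DEGs. An unadjusted p under 0.05 was reached by 1 gene at each time, *Osgin1*, beside 0.257% and 4.43% of all genes, and edgeR and DESeq2 called 0. *Osgin1* was also the 1 gene whose groups did not overlap at each time, beside 2.76% of all genes at 4 h (1.33% higher with MMF) and 9.73% at 24 h (4.62% higher). The block added *Osgin1* at 24 h, beside 1.38% of all genes. The median log2FC of the 9 with MMF was below 0.01 at 4 h and 0.02 at 24 h.

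CBD called 0 of the 9 by limma at both times, with 0.00705% of all genes called at 4 h and 0.114% at 24 h (0.0426% higher and 0.071% lower). Here 1 gene at 4 h (*Maff*) and 2 at 24 h (*Nfe2l2* and *Osgin1*) had an unadjusted p under 0.05, beside 3.97% and 9.83% of all genes. The edgeR test called 0 at both times, and DESeq2 called 0 and 1. Groups did not overlap for 0 of the 9 at 4 h, beside 9.95% of all genes (4.7% higher with CBD), and for 1, *Osgin1*, at 24 h, beside 15.9% (7.35% higher). With the block, *Maff* was called at 4 h, beside 2.33% of all genes (1.66% higher and 0.669% lower). At 24 h the block called 0 of the 9, beside 0.504% of all genes, while 3 had an unadjusted p under 0.05 with it. The median log2FC of the 9 with CBD was 0.08 at 4 h and 0.20 at 24 h.

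DMF and MMF differ by a methyl ester group, which is a free acid in MMF. They were given at the same dose for the same times, so this 1 pair could be compared directly at 4 and at 24 h, with p adjusted over all genes. At 4 h, *Mafg* was higher with DMF than with MMF by a log2FC of 0.45 ± 0.08 (SE, adjusted p = 0.0348). At 24 h, *Mafg* was higher by 0.33 ± 0.06 (adjusted p = 0.021) and *Osgin1* by 1.70 ± 0.33 (adjusted p = 0.0299). For *Osgin1* at 24 h the libraries with DMF had 79.3, 87.7 and 193 normalized counts, and those with MMF 40.1, 33.7 and 27.4. With 1 library fewer, *Mafg* was called in 0 of 6 fits at 4 h (adjusted p up to 0.15) and in 2 of 6 at 24 h (up to 0.111), and *Osgin1* in 2 of 6 at 24 h (up to 0.103), all in the same direction. With the spread of all 30 libraries, *Osgin1* at 24 h was not called (adjusted p = 0.105). The *Osgin1* groups did not overlap, with library 3 both the highest with DMF and the lowest with MMF. All genes gave 1.61% DEGs at 4 h and 3.56% at 24 h, and 4 and 5 of the 9 did not overlap, beside 24.2% and 22.7% of all genes.

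*Nfe2l2* had 484, 500 and 484 normalized counts with DMF and 334, 357 and 212 with MMF at 24 h in this table, which did not overlap. The difference of 0.73 (95% interval 0.33 to 1.14) passed with the replicate block (adjusted p = 0.0669 without it and 0.00593 with it). So did *Maff* at 24 h, by 1.18 (0.0289 with the block), and at 4 h *Osgin1* by 1.32 (0.000589), *Nfe2l1* by 0.20 (0.00897) and *Cul3* by 0.17 (0.049). DESeq2 also called *Nfe2l2* (0.00384) and *Maff* (0.0129) at 24 h and *Osgin1* at 4 h (0.00909). With the block, 4 of the 9 were called at each time, beside 23.6% and 12.2% of all genes. For the rest no difference was shown, and the intervals give how large it could be. At 24 h that of *Keap1* was -0.05 to 0.34, that of *Cul3* -0.06 to 0.24 and that of *Bach2* -0.25 to 0.45. For *Nfe2l2* at 4 h the interval was -0.48 to 0.81 without the block and -0.03 to 0.37 with it. It was not called with the block either (adjusted p = 0.228).

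**Figure D4:**
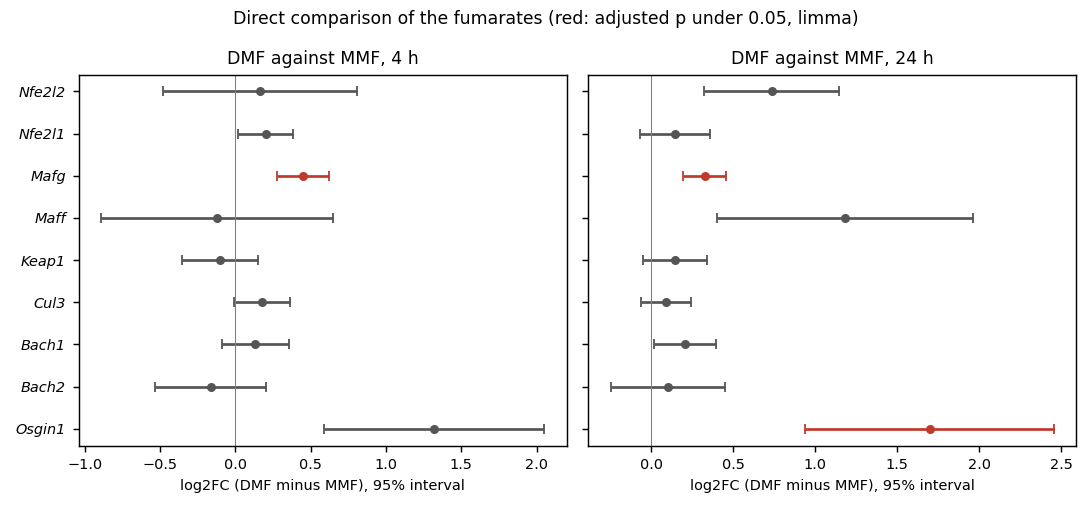
Log2FC of DMF minus MMF (horizontal, points) with 95% intervals (bars) for the 9 genes (vertical) at 4 and 24 h, with red for an adjusted p under 0.05. *Mafg* at 4 h (0.45) and *Mafg* and *Osgin1* at 24 h (0.33 and 1.70) are red, and *Nfe2l2* lies at 0.17 at 4 h and 0.73 at 24 h.

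The DMF effect was also compared between times and with the CBD effect, each against its own vehicle. CBD was given at another dose and in another vehicle than DMF. At 4 h the CBD effect on *Mafg* was below the DMF effect by 0.43 on the log2 scale (-0.43 ± 0.09, SE, adjusted p = 0.0471), with 0.999% of all genes called. It was not called with the spread of all 30 libraries (adjusted p = 0.0873) or without the libraries numbered 3 (-0.45, adjusted p = 0.178). With the block, *Osgin1* (-1.99, adjusted p = 0.0165), *Cul3* (-0.25, 0.0409) and *Bach2* (0.33, 0.0316) were called too, beside 10.4% of all genes. At 24 h the difference between these effects was 0.00 for *Mafg* (95% interval -0.38 to 0.38), -0.10 for *Nfe2l2* (-1.01 to 0.81) and -0.62 for *Osgin1* (-2.67 to 1.42). None of the 9 passed by limma, edgeR or DESeq2 or reached an unadjusted p under 0.05 by limma, and these intervals are wide. Of all genes, limma called 0.391% there. With the block 0 of the 9 were called, beside 2.58% of all genes.

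From 4 to 24 h the DMF effect grew by 0.74 for *Nfe2l2* and by 1.56 for *Maff*, which passed with the block (adjusted p = 0.288 and 0.0745 without it, 0.0312 and 0.0288 with it), beside 13.2% of all genes. DESeq2 also called *Maff* (0.014). Between 4 and 24 h the *Maff* log2FC was 0.06 within DMF (adjusted p = 0.928 by limma) and -1.49 within DMSO. The larger DMF effect on *Maff* at 24 h thus goes with a lower DMSO level. For *Nfe2l2* the log2FC between the times was 0.56 within DMF and -0.18 within DMSO. The change in the DMF effect was 0.71 for *Osgin1* (95% interval -0.68 to 2.10) and -0.16 for *Mafg* (-0.35 to 0.03). For MMF and CBD, 0 of the 9 passed by limma, with or without the block, and 0 by edgeR or DESeq2. Of all genes, limma called 0% for MMF in both fits, and for CBD 0% without the block and 0.0552% with it. Without the block 0 of the 9 had an unadjusted p under 0.05 for either drug. With the block 2 did for CBD, *Osgin1* (2.08, unadjusted p = 0.0331) and *Mafg* (0.27, 0.0473), and 0 for MMF.

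Lists of related genes were taken by name to place the 9 genes in their pathway. They were chosen with earlier results of these data known, so their counts are a description and no independent test. Of 27 Nrf2 targets, 25 were tested. DMF raised 4 of them at 4 h and 15 at 24 h, beside 1.87% and 1.88% of all genes, and 21 and 23 of the 25 had a positive log2FC, with a median of 0.16 and 0.43. At 4 h these were *Hmox1* (heme oxygenase 1, log2FC 3.92, adjusted p = 0.00469), *Txnrd1* (thioredoxin reductase 1, 0.68, 0.0108), *Srxn1* (sulfiredoxin, 1.58, 0.0227) and *Abcc4* (an efflux pump, 0.46, 0.0494). At 24 h the smallest p belonged to *Gstp1* (a glutathione transferase, log2FC 1.55, adjusted p = 2.19e-05), *Nqo1* (a quinone reductase, 2.35, 2.19e-05), *Gsta1* (a further transferase, 2.34, 0.000623) and *Gclc* (which makes the precursor of glutathione, 0.74, 0.00137). With the block, 13 passed as higher and 1 as lower (*Abcc1*, an efflux pump) at 4 h, where 11.5% of all genes were higher and 11.5% lower. At 24 h 18 passed as higher with the block, beside 5.81% of all genes. Without the libraries numbered 3, 2 rose at 4 h and 13 at 24 h.

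MMF raised 1 of the 25 targets at 24 h, *Gstp1* (log2FC 0.66, adjusted p = 0.0454), and 23 of 25 were positive with a median of 0.22, beside 0.00707% of all genes called. There edgeR called 1 and DESeq2 4, and 12 had an unadjusted p under 0.05, beside 4.43% of all genes. With the block MMF raised 10 at 24 h, beside 1.21% of all genes, and without the libraries numbered 3 it raised 4. At 4 h MMF called 0 of the 25 by limma, with or without the block, and 0 by edgeR and DESeq2, while 4 had an unadjusted p under 0.05, beside 0.257% of all genes. CBD called 0 of the 25 by limma and edgeR at either time, where 4 at 4 h and 9 at 24 h had an unadjusted p under 0.05, beside 3.97% and 9.83% of all genes. DESeq2 called 0 at 4 h and 2 at 24 h with CBD, and limma 3 (*Hmox1*, *Abcc4* and *Slc7a11*, the cystine importer) at 4 h with the block, all higher, beside 1.66% of all genes. *Hmox1* with CBD at 24 h had 446, 5355 and 17649 normalized counts in libraries 1, 2 and 3, against 328, 274 and 204 with EtOH. This is the same order of libraries as for *Nfe2l2* and *Osgin1*, with all 3 above EtOH (log2FC 3.72 ± 1.10, SE, adjusted p = 0.381 by limma). The paper, which used DESeq2, reports *Hmox1* as strongly upregulated with CBD at 24 h.

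Of 25 genes that serve the turnover of Nrf2, Nrf1 and Bach1, 24 were tested. DMF raised 1 of them at 24 h, *Sqstm1* (p62, which binds Keap1 and draws it into autophagy, log2FC 0.77, adjusted p = 0.00924), beside 1.88% of all genes. At 4 h it called 0 by limma, edgeR and DESeq2, with an unadjusted p under 0.05 for 4, beside 20.1% of all genes. With the block 3 were higher (*Syvn1*, *Sel1l* and *Sqstm1*) and 1 lower (*Ddi2*) at 4 h, and *Sqstm1* was higher and *Amer1* lower at 24 h. Over all genes the block called 23% and 12.9%, so these counts of 4 and 2 among 24 are no more than the share of all genes. Those called with the block alone were named after their values were seen. The median log2FC of the list was 0.04 and 0.01, beside below 0.01 and -0.01 for all genes. MMF called 0 of the 24 at either time by all 3 tools, and 0 had an unadjusted p under 0.05. CBD called 0 by limma and edgeR at both times, with 3 at an unadjusted p under 0.05 each time, beside 3.97% and 9.83% of all genes, and DESeq2 called 1 at 4 h and 0 at 24 h. With the block, CBD at 4 h had *Syvn1* and *Sel1l* higher and *Nedd8* lower, beside 1.66% and 0.669% of all genes.

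Of 13 other genes, which are bZIP factors, coactivators and *Rxra* (a nuclear receptor that can inhibit Nrf2), 12 were tested, or 11 for CBD at 24 h. DMF raised *Jun* (log2FC 0.95, adjusted p = 0.00948) and *Atf3* (2.25, 0.0197) at 24 h, both stress-induced factors, beside 1.88% of all genes. At 4 h it called 0 by limma and edgeR and 1 by DESeq2, with 5 at an unadjusted p under 0.05, beside 20.1% of all genes. With the block 4 passed as higher and 2 as lower at 4 h, beside 11.5% of all genes in each direction. MMF called 0 at either time by all 3 tools. With MMF, 0 at 4 h and 3 at 24 h had an unadjusted p under 0.05, beside 0.257% and 4.43% of all genes. CBD called 0 by limma and edgeR, with 3 and 2 at an unadjusted p under 0.05, beside 3.97% and 9.83% of all genes. DESeq2 called 1 at 4 h and 0 at 24 h with CBD, and the block called *Atf3* at 4 h, beside 2.33% of all genes.

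Markers of cell types moved with DMF too. At 4 h, where *Mafg* and *Osgin1* rose, the summed level of vascular markers (5 of 6 listed had a row) was 244 to 345 with DMF and 522 to 708 with DMSO, which did not overlap. Of 4 vascular markers tested 1 fell, *Pdgfrb*, and 0 had a positive log2FC. Of 10 neuron markers 1 fell at 4 h, *Tubb3*, while 0 of 9 astrocyte and 0 of 7 oligodendrocyte lineage markers passed. Over all genes, 1.55% were called lower with DMF at 4 h.

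At 24 h, where *Nfe2l2*, *Mafg* and *Osgin1* rose, the astrocyte sum was higher with DMF in each replicate number, with 99789, 111276 and 61435 against 81437, 97494 and 58071 with DMSO. The groups overlapped, 3 of the 9 astrocyte markers had a positive log2FC, and the 1 that passed, *Aldh1l1*, fell. The neuron sum was lower with DMF in each number, with 102367, 92011 and 109955 against 110639, 109014 and 121227, and 1 of 10 neuron markers had a positive log2FC while 0 passed. Of 7 proliferation genes 6 fell, where 2.09% of all genes were called lower with DMF. Their summed level was 2421 to 2750 against 4706 to 5075. Of 8 oligodendrocyte lineage markers 7 were tested, of which *Pdgfra*, *Cspg4* and *Sox10* fell and 1 had a positive log2FC. The part of these cells in the changes of *Nfe2l2*, *Mafg* and *Osgin1* was not tested.

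With CBD at 24 h, the neuron sum was 98421 to 107995 against 108061 to 126552 with EtOH. None of the 10 neuron markers had a positive log2FC, and 2 of them, *Gad1* and *Gad2*, fell. Over all genes, limma called 0.071% lower with CBD at 24 h. Of 9 astrocyte markers 1 had a positive log2FC and 0 passed by limma.

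After the mean of each replicate number was removed, the genes whose levels ran most like those of *Nfe2l2* over the 30 libraries were *Cd63* (Pearson's r = 0.95), *Msn* (0.93) and *Unc5b* (0.93), out of 14929 genes. *Cd63* encodes a tetraspanin of late endosomes, *Msn* moesin and *Unc5b* a netrin receptor. Their group means were highest with CBD at 24 h, *Cd63* with 3353, 5042 and 5354 normalized counts in libraries 1, 2 and 3, and *Unc5b* with 404, 1288 and 2240. The next highest group for each was that with DMF at 24 h. Among the other members, r was 0.81 for *Nfe2l1*, 0.72 for *Osgin1* and 0.61 for *Mafg*, and -0.23 for *Bach2*. The libraries share treatments and experiments, and the CBD libraries at 24 h weigh heavily in these values, which are given as a description only.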

How the data were processed

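The files hold RNA-seq of 30 libraries of rat hippocampal neurons. Per the labels and the paper, the authors removed adapters (cutadapt 4.4), trimmed by quality (Trimmomatic 0.39), used HISAT2 2.2.1 to place reads on mRatBN7.2, counted them per gene with HTSeq 2.0.3 (strand setting not given in the sources used here) and normalized with DESeq2 1.40.2. The deposited signal values are counts divided by size factors, 1 table per pair of groups, and 15 tables were used. The 4 tables of CBD against a fumarate were not used, since their vehicles differ. The deposited fold changes and p-values of the authors were not used. Every value was a whole number of reads (100%, within 0.01) once divided by the step of its library.

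Genes were kept with filterByExpr (edgeR 4.0.16) and groups compared with limma 3.58.1 in R 4.3.3 on log2(normalized count + 1), by empirical Bayes with a trend, with Benjamini-Hochberg adjustment over all genes. Differences between effects were fitted over 12 libraries. The 20 comparisons used 3 libraries per group. The series states 3 independent experiments, which gives the pairing by number. Deviations from group means correlated between 0.149 and 0.755 for the same number (45 pairs), and at most 0.191 for different numbers. All 10 members are named. From each related list up to 4 genes with the smallest p past the threshold are named per drug and vehicle, and the 3 genes most like *Nfe2l2*. Members and lists were chosen with earlier results of these data known. Alternatives were no filter, a pseudocount of 0.1, TMM scaling, edgeR, DESeq2 1.42.0, the replicate block, the spread of all 30 libraries and single libraries left out. The block in edgeR and leaving out all libraries numbered 3 were added after the data were seen. Tests were tried on simulated data. Plots used Python 3.11.15, NumPy 2.4.6, pandas 2.3.3 and matplotlib 3.10.9.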

Additional observations from a re-analysis of the deposited data

Results flagged for a closer look

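The effect of CBD on *Mafg* at 4 h differed from that of DMF by a test of the difference itself, with -0.43 on the log2 scale (adjusted p = 0.0471 by limma, 12 libraries). *Mafg* had a log2FC of 0.03 with CBD and 0.46 with DMF, each against its own vehicle. The difference lay between -0.49 and -0.39 in the 12 fits with 1 library fewer and was called in 1 of them.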

How the results depend on the processing

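TMM scaling, a pseudocount of 0.1 and edgeR called the same number of members in all 20 comparisons. With the replicate block the number called was 5 for DMF against DMSO at 4 h and 4 at 24 h. It was 1 for MMF against DMSO at 24 h and 1 for CBD against EtOH at 4 h. For DMF against MMF it was 4 at 4 h and 4 at 24 h. At 24 against 4 h it was 1 for DMSO, 1 for MMF and 3 for DMF, beside 1.47%, 1.82% and 32.3% of all genes. The 3 of the 9 for DMF are thus near the share of all genes. DMSO against EtOH at 4 h had 1, beside 0.39% of all genes. The change in the DMF effect had 2, and the CBD minus the DMF effect at 4 h had 4. The block took no call away, and in edgeR it gave the same counts but for 3 in DMF against MMF at 4 h and 5 in the CBD minus the DMF effect at 4 h. DESeq2 gave 1 for CBD at 24 h, 2 and 4 for DMF against MMF, 1 for DMSO at 24 against 4 h, 1 for DMSO against EtOH at 4 h and 1 for the change in the DMF effect. For DMF against DMSO at 24 h DESeq2 called *Maff* too (adjusted p = 0.0121). The spread of all 30 libraries gave 3 for DMF at 4 h (with *Cul3*), 1 for DMF at 24 h, 1 for CBD at 24 h, 1 for DMF against MMF at 24 h and 0 for the CBD minus the DMF effect at 4 h, which was also 0 without the filter on low counts. Without the libraries numbered 3 the counts were 0 for DMF at 4 h, 0 for DMF against MMF at 4 h, 0 for DMF at 24 against 4 h and 0 for the CBD minus the DMF effect at 4 h, in fits of 2 libraries per group, and *Mafg* turned to below 0 with MMF at 4 h (-0.0023) and with CBD at 4 h (-0.0038). In these limma fits *Mafg* was not called for DMF at 24 h (adjusted p = 0.104). *Nfe2l2* was called in them for DMF against MMF at 24 h (adjusted p = 0.0348). With 1 library fewer, values that missed the threshold changed sign. *Nfe2l2* lay between -0.034 and 0.49 for DMF at 4 h, -0.20 and 0.30 for MMF at 4 h, -0.091 and 0.47 for CBD at 4 h, and -0.074 and 0.42 for DMF against MMF at 4 h. *Mafg* lay between -0.028 and 0.046 for MMF at 4 h, -0.052 and 0.013 for MMF at 24 h, and -0.025 and 0.068 for CBD at 4 h. *Maff* lay between -0.59 and 0.092 for MMF at 4 h, -0.026 and 0.20 for MMF at 24 h, and -0.42 and 0.27 for DMF against MMF at 4 h. Counts then ran from 0 to 1 for DMF at 4 h, 1 to 3 for DMF at 24 h, 0 to 1 for CBD at 24 h, 0 to 0 and 0 to 2 for DMF against MMF, 0 to 1 for DMF at 24 against 4 h and 0 to 1 for the CBD minus the DMF effect at 4 h. The cause of these changes was not tested. Values of single genes were followed for members called with or without the block and for *Nfe2l2*, *Mafg*, *Maff* and *Osgin1*, a choice made after results were seen. *Osgin1* had as few as 5 reads in a library, which limits its precision.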
